A study of Mus musculus with 840 samples.

Results

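Mammary epithelial cells that still lay in the basal FACS gate of K5CreERT2/N1ICD mice were compared between GFP+ cells, in which the N1ICD allele had been switched on, and GFP- cells of the same mice. They were the cells of 1 sequencing batch that the deposited annotation calls basal and K5Cre: 24 cells, 12 GFP+ and 12 GFP-, of 264 in that batch and 840 in the series. They had been index-sorted onto 2 plates, here called plate G and plate L, each from 2 pooled mice, with 6 cells of each GFP state per plate. A cell was kept with over 100000 reads on genes, over 1400 genes, under 10% mitochondrial reads and at least 2 *Epcam* reads, which left 22 cells, 11 of each state.

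All these mice carry a tamoxifen-inducible Cre under the keratin 5 promoter, which is active in basal cells of many epithelia, and a conditional Rosa26 allele that, once recombined, expresses the active intracellular domain of Notch1 (N1ICD) and, from the same transcript, a nuclear GFP. Tamoxifen was given at postnatal day 21. The plate descriptions and the paper's count of sorted cells put both K5Cre plates at 3 weeks of chase. The sample names of plate L say 6 weeks, a conflict between labels that was not resolved here. The GFP- cells carry both alleles and saw the same tamoxifen, so they are cells without visible recombination and not cells of another genotype. The gate itself is defined by EpCAM and CD49f at the surface.

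Mammary basal cells form the outer, contractile layer of the ducts. They express keratins 5 and 14, the transcription factor p63 and smooth muscle proteins, and they deposit the basement membrane, whereas the inner luminal cells express keratins 8, 18 and 19. Notch receptors are cut on ligand binding, and the freed intracellular domain enters the nucleus, joins the DNA-binding protein RBPJ and turns on repressors of the Hes and Hey families. In the mammary gland Notch activity favours the luminal fate, and the basal gate holds the GFP+ cells whose surface profile had not yet left the basal range.

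The kept cells had 502620 to 2213770 reads on genes and 2952 to 13351 detected genes. Reads were summed over the cells of each plate and GFP state, which gave 4 sums of 6823336 to 9838861 reads and 2 plates per state. Levels are CPM, the reads of a gene scaled to the total reads on genes of that cell or sum. Where 2 levels are joined by "and", GFP- comes before GFP+ of the same plate. A log2 difference is GFP+ against GFP- from edgeR with the plate as a block. Its standard error (SE) was derived from the test statistic of that fit, over 2 plates per state. Beyond GFP, wells also differed, since GFP- cells lay in row A and GFP+ cells in row B of each plate, and position and GFP state cannot be told apart. Several libraries stood apart. A GFP+ cell of plate G and a GFP- cell of plate L had no *Epcam* read and were left out by the rule. The GFP+ one of them carried 29485 CPM of fibroblast genes. A GFP- cell of plate L had 13351 genes and 4759 CPM summed over the cell cycle list, against at most 1904 CPM in any other kept cell, and another GFP- cell of plate L had 83450 CPM of immediate early genes. In addition, 6 cells (4 GFP+ and 2 GFP-) had over 5000 CPM of cholesterol and fatty acid synthesis genes, and the results are given with and without them. That threshold was set after seeing the data.

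By their defining markers the cells were less uniformly basal than the gate implies. The sum of 10 basal markers was 2258 to 24622 CPM in GFP- cells (median 8425) and 546 to 17356 CPM in GFP+ cells (median 4363). The sum of 10 luminal markers was 297 to 7413 CPM (median 1674) in GFP- and 233 to 5818 CPM (median 1192) in GFP+ cells. Both ranges overlapped almost throughout, and 11 of the 12 luminal-gate GFP- cells of the same plates had at most 320.6 CPM of basal markers, the other 12627 CPM. Reads of both *Krt5* and *Acta2* over 10 CPM were found in 6 of 11 GFP- and 3 of 11 GFP+ cells, and in 6 of 6 basal GFP- cells of the SMACreERT2/N1ICD mice sequenced alongside. Neither gene exceeded 10 CPM in 2 GFP- and 3 GFP+ cells of the K5Cre basal gate. All of these cells were among the 6 with over 5000 CPM of cholesterol and fatty acid synthesis genes. Marker sums of fibroblast, endothelial, immune, pericyte, red blood cell, fat and salivary cells had a median at or under 0.502 CPM in each state. Their highest value in any kept cell was 482 CPM, for fibroblast genes in a GFP- cell.

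**Figure D1:**
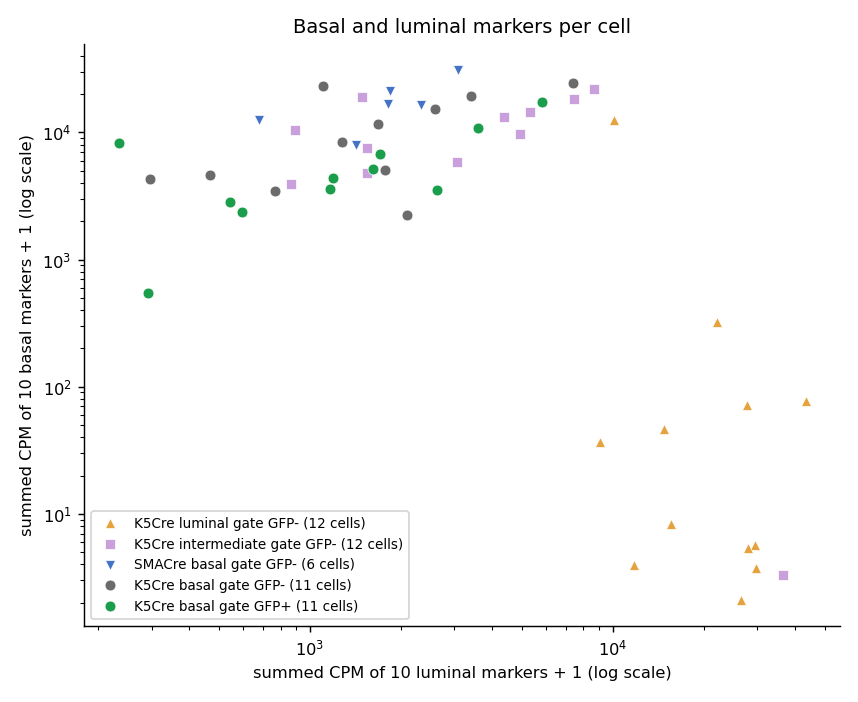
Summed CPM of 10 basal markers (vertical) against 10 luminal markers (horizontal), both plus 1 on log scales, 1 point per kept cell. The K5Cre basal-gate cells of both GFP states lie together at 546 to 24622 CPM of basal markers, beside the SMACre basal GFP- cells, while most luminal-gate GFP- cells lie far lower.

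*Notch1* (chr2:26457903-26516663 of GRCm38, minus strand), the gene whose intracellular part the allele expresses, did not separate the states. Its level was 395 CPM in GFP- and 183 CPM in GFP+ cells on plate G, and 105.8 and 307 CPM on plate L. The order of the states was thus opposite on the 2 plates, and the log2 difference was 0.29 ± 0.81 (SE, edgeR p = 0.73). *Notch1* had reads in 9 of 11 GFP- cells (0 to 1496 CPM, median 50.5) and in 10 of 11 GFP+ cells (0 to 711.7 CPM, median 197). The cell at 1496 CPM lay on plate G, where no other GFP- cell exceeded 374 CPM. The plate G level of GFP- cells thus leaned on 1 cell. Gene counts do not tell reads of the transgene from reads of the endogenous gene, and whether the alignment held the transgene is not given in the sources used here. The GFP label therefore rests on the sort, and *Notch1* reads are no check of it.

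Across the transcriptome, edgeR called none of 12423 genes at an adjusted p under 0.05 (0%, smallest adjusted p 1.00). At an unadjusted p under 0.05 it listed 272 genes (2.19%), 166 of them lower in GFP+ (1.34% of genes tested) and the rest higher (0.853%). DESeq2 called 171 genes (1.38%), 62 of them higher in GFP+ and the rest lower, but on counts simulated with the spread of these sums it also called many unchanged genes, so its calls are not used as evidence here. The plate-level spread was wide, with a common dispersion of 1.12 and 1 residual degree of freedom, and an exact paired permutation test on 2 plates cannot give a p under 0.50. No gene below is therefore called different by edgeR, and each had an adjusted p of 1.00. What follows are levels, their differences and the spread.

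The direct Notch targets were sparse. *Hes1*, a repressor and classical Notch target (chr16:30064384-30067796, plus strand), stood at 14.8 CPM in GFP- and 64.9 CPM in GFP+ cells on plate G and at 83.9 and 22.8 CPM on plate L. Its order thus turned between plates, with reads in 5 of 11 cells of each state and a log2 difference of 0.20 ± 1.44 (edgeR p = 0.89). Without the 6 cells high in lipid-synthesis genes the difference was 1.68 ± 1.44 (edgeR p = 0.27). The highest GFP- cell of plate L, at 329.8 CPM, was among those left out. *Hey1*, a related repressor (chr3:8663359-8667256, minus strand), had no read in any of the 6 GFP- cells of plate G and 52.9 CPM in GFP+ cells. On plate L it stood at 3.38 CPM in GFP- and 6.10 CPM in GFP+ cells. *Hey1* was thus higher in GFP+ on both plates, as were 20.8% of all genes tested, and its log2 difference was 4.99 ± 4.11 (edgeR p = 0.27). The plate G value rested on 2 cells at 125.2 and 157.9 CPM, and the other 3 GFP+ cells of that plate had no read. After thinning every cell to 100000 reads, *Hey1* was found in 3 of 11 GFP+ cells (27.3%, exact Clopper-Pearson 95% interval 6.02% to 60.97%) and in 0 of 11 GFP- cells (0% to 28.5%), intervals that cover counting error over cells only.

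Of the 14 listed effectors 7 passed the filter on low counts, with a median log2 difference of 0.20. Of these 7, 2 were higher and 1 lower in GFP+ on both plates, against 20.8% and 26.6% of all genes tested. *Hes2*, *Hes5* and *Hey2* had no read in any kept cell, and *Hes6* had reads in 2 GFP+ cells of plate L. *Nrarp*, a feedback inhibitor of Notch, had reads in 2 GFP+ cells of plate L (2.34 CPM) and in no GFP- cell, and *Heyl* in 1 GFP- cell. *Myc* was the effector with the smallest p. It stood at 884 CPM in GFP- and 420 CPM in GFP+ cells on plate G and at 860 and 175 CPM on plate L, so that both GFP+ sums lay below both GFP- sums, as they did for 18.2% of all genes tested. The log2 difference of *Myc* was -1.61 ± 0.58 (edgeR p = 0.034).

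Among the receptors, *Notch2* differed little and in opposite directions, with 78.1 and 41.5 CPM in GFP- and GFP+ cells on plate G and 34.03 and 50.5 CPM on plate L. *Notch3* had reads in 3 GFP+ cells and 1 GFP- cell (0 and 7.47 CPM on plate G, 0.211 and 23.6 CPM on plate L), and at least 87.1% of the reads of each GFP+ sum came from 1 cell. Of the ligands, *Jag1* was slightly higher in GFP+ on both plates (254 and 341 CPM on plate G, 98.4 and 144.3 CPM on plate L, log2 difference 0.57 ± 0.50). *Jag2* was lower on both (125.5 and 68.1 CPM, then 151.7 and 32.6 CPM), with a log2 difference of -1.47 ± 0.68 (edgeR p = 0.075). *Dll1* was 417 and 43.8 CPM on plate G and level on plate L at 47.7 and 48.1 CPM. Of 20 tested genes of the pathway machinery, such as the secretases, *Rbpj* and its cofactors, 5 were higher and 5 lower on both plates. The shares over all genes tested were 20.8% and 26.6%. The median log2 difference of the machinery genes was 0.08 against -0.06 over all genes. The medians were 0.29 over the 3 tested receptors (-0.82 on plate G and 1.61 on plate L) and -1.47 over the 3 tested ligands.

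**Figure D2:**
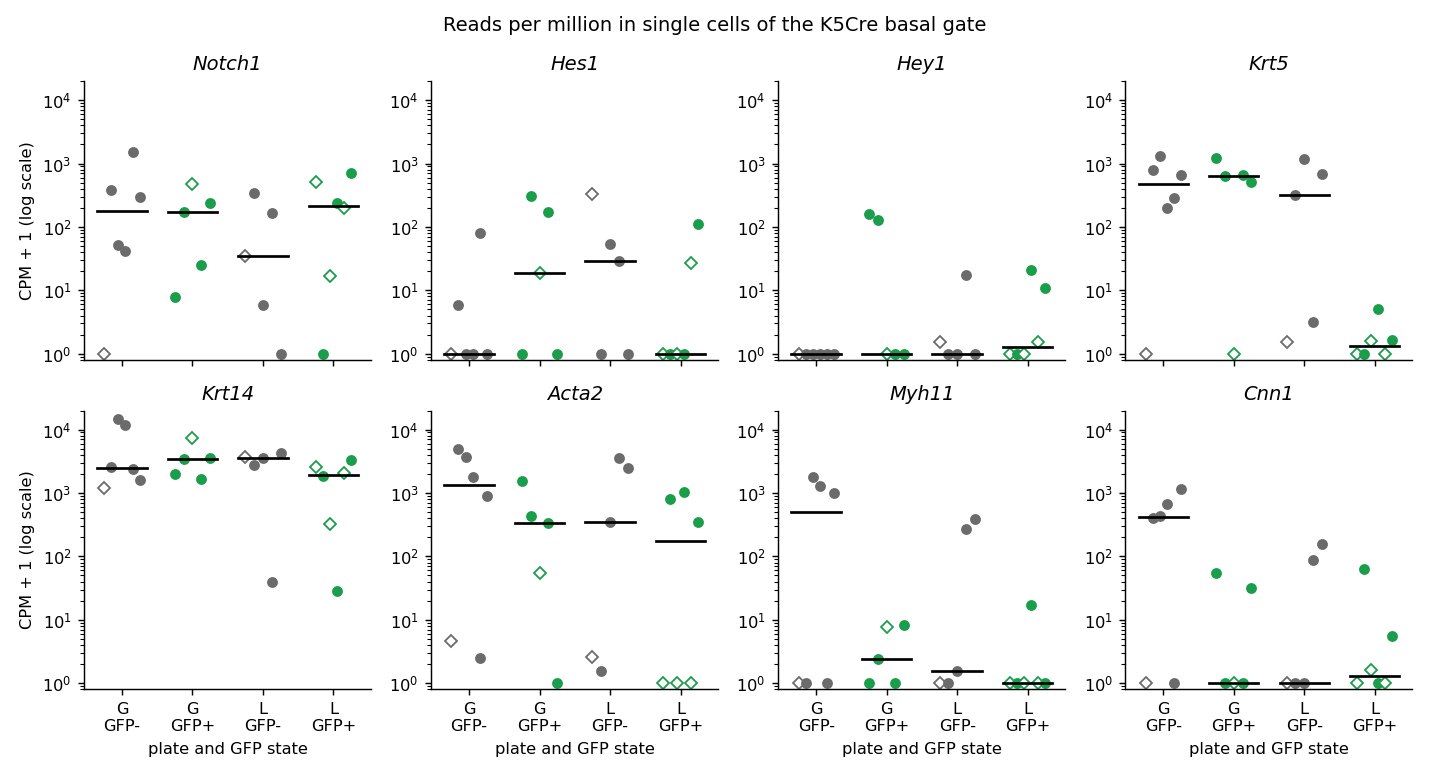
CPM plus 1 (log scale) of 8 genes in single kept cells, by plate (G, L) and GFP state, with bars at the median and open diamonds for the 6 cells over 5000 CPM of lipid-synthesis genes. *Notch1* and *Hes1* overlap between the states, *Krt5* is at most 4.07 CPM in every GFP+ cell of plate L, and *Myh11* stays at or under 16.3 CPM in every GFP+ cell.

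Of the smooth muscle genes, *Myh11* and *Cnn1* were far lower in GFP+ on both plates. *Myh11*, the smooth muscle myosin heavy chain (chr16:14194535-14291372, minus strand), stood at 701.3 CPM in GFP- and 3.52 CPM in GFP+ cells on plate G and at 135.1 and 3.66 CPM on plate L. No GFP+ cell exceeded 16.3 CPM, whereas 5 of 11 GFP- cells had over 100 CPM, up to 1757 CPM, and the other 6 GFP- cells had 10 CPM or less. The log2 difference was -6.33 ± 0.91 (edgeR p = 0.00055) and ranged from -8.62 to -5.81 when each cell was left out in turn. *Cnn1*, the calcium-binding thin filament protein calponin, stood at 454 and 22.1 CPM on plate G and at 49.6 and 3.96 CPM on plate L, a log2 difference of -3.93 ± 0.63 (edgeR p = 0.00094). Without the 6 lipid-high cells these differences were -6.14 for *Myh11* and -3.44 for *Cnn1*.

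*Acta2*, smooth muscle actin (chr19:34241090-34255590, minus strand), followed with a smaller difference. Its level was 1898 CPM in GFP- and 506.1 CPM in GFP+ cells on plate G and 1308 and 325 CPM on plate L. Both GFP+ sums lay below both GFP- sums, and the within-plate log2 ratios were close, at -1.82 and -1.94. The fitted value was -1.88 ± 0.51 (edgeR p = 0.012). It ranged from -2.76 to -1.44 when each cell was left out and was -1.39 (edgeR p = 0.050) without the lipid-high cells. The single cells overlapped, with 0.559 to 4978 CPM (median 884) in GFP- and 0 to 1559 CPM (median 341) in GFP+ cells. *Acta2* was above 10 CPM in 7 of 11 cells of each state. All 6 SMACre basal GFP- cells had over 100 CPM of it, with 5783 CPM in their sum.

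The rest of the contractile list differed less. Of 15 tested members (of 18 listed), 9 were lower in GFP+ on both plates, against 26.6% of all genes tested, and 2 were higher. The 3 with an unadjusted p under 0.05 are those named above. In a sum, fewer cells with a transcript and less of it per cell cannot be told apart. The median log2 difference was -0.79. *Tpm1*, a tropomyosin, was 1254 and 1064 CPM on plate G and 884 and 312 CPM on plate L, while *Flna*, the actin crosslinker filamin A, was slightly higher in GFP+ on both plates (1407 and 1663 CPM, then 562 and 758 CPM). The genes of the list therefore did not share 1 size of difference, and the median was -0.15 on plate G and -1.43 on plate L.

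The *Acta2* promoter is printed because this gene carried a difference of like size on both plates. It is the RefSeq window of GRCm38.p6 from 250 bases before to 50 after the RefSeq start, chr19:34255324-34255623 on the minus strand. The core letters bound by RBPJ, TGGGAA on either strand, are in capitals. The *Acta2* coordinates given above come from another annotation, whose start lies inside this window, so the marked letters fall within that gene span.
Acta2: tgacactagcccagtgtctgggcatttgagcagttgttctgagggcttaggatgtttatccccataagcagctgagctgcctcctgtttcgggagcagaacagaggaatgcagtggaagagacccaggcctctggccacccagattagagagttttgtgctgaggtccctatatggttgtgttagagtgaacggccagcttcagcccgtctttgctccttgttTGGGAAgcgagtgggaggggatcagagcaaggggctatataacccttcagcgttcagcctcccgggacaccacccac
These letters occur in 25.6% of 32851 windows and in 4 of the 14 contractile genes with a window (28.6%), a similar share. A gene counted if any of its windows matched. *Hes1*, *Hey1* and *Myh11* had no entry in the table used.

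**Figure D3:**
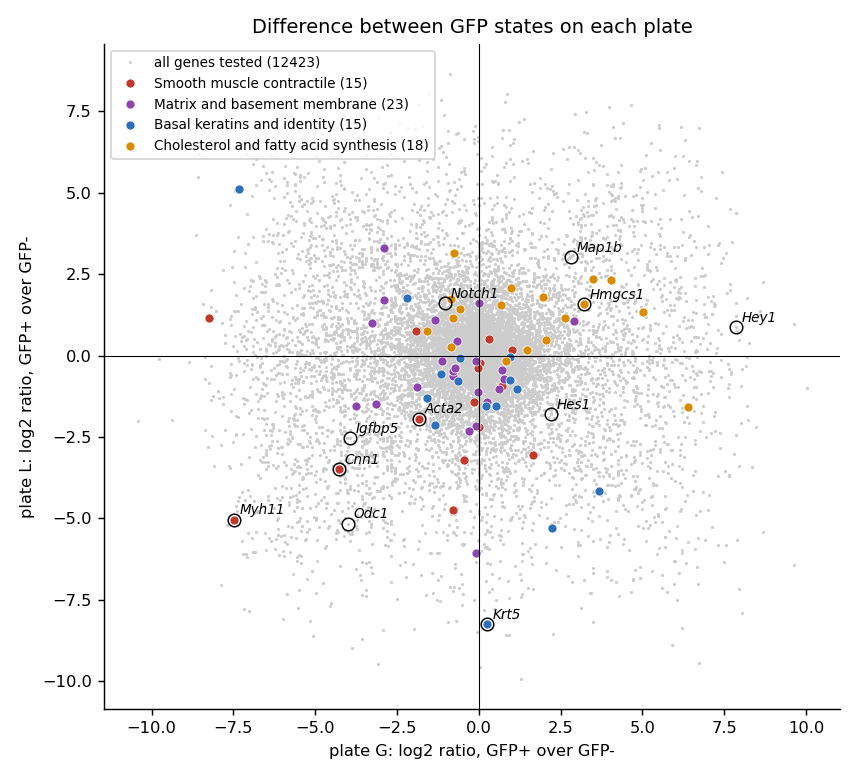
Log2 ratio of GFP+ over GFP- within plate G (horizontal) and within plate L (vertical), 1 grey point for each of 12423 genes, with 4 gene lists in colour and named genes ringed. *Myh11*, *Cnn1*, *Acta2*, *Odc1* and *Igfbp5* lie below 0 on both axes, and *Krt5* lies below 0 on plate L alone.

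The basal keratins did not follow 1 pattern. *Krt5* (chr15:101707070-101712898, minus strand), the gene whose promoter drives the Cre, stood at 554 CPM in GFP- and 628 CPM in GFP+ cells on plate G. On plate L it was 433 CPM in GFP- and 1.12 CPM in GFP+ cells, where no cell exceeded 4.07 CPM. The within-plate log2 ratios were 0.27 and -8.25, and the log2 difference of -3.94 ± 3.17 (edgeR p = 0.26) describes neither plate. *Krt14* kept reads in 11 of 11 cells of each state, at 5887 and 3578 CPM on plate G and 2877 and 1602 CPM on plate L, a log2 difference of -0.70 ± 0.55. *Krt15* (356 and 1568 CPM, then 1755 and 42.5 CPM) and *Krt17* (1963 and 2693 CPM, then 2442 and 790 CPM) were higher in GFP+ on plate G and lower on plate L. *Trp63*, which encodes p63, had the same order, with 457 and 497 CPM on plate G and 664 and 217 CPM on plate L.

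Of 15 tested basal identity genes, 5 were lower on both plates (26.6% of all genes were) and none higher, with a median of -0.67. The median was 0.21 on plate G and -1.04 on plate L, so its sign turned between plates. *Vim*, an intermediate filament protein, was 396 and 148.6 CPM on plate G and 79.996 and 17.3 CPM on plate L (log2 difference -1.73 ± 0.56, edgeR p = 0.023), and *Col17a1*, a hemidesmosome collagen, was 311 and 97.02 CPM, then 287 and 110 CPM (-1.46 ± 0.52, edgeR p = 0.032). Leaving out single cells moved *Vim* from -3.71 to -0.38, since 1 GFP- cell held 86.7% of its plate G reads. *Itga6*, which encodes the CD49f used in the gate, was 512 and 326 CPM on plate G and 484 and 437 CPM on plate L. As a gating gene it is no finding between cells of the gate.

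Basement membrane genes were lower more often than not. Of 23 tested matrix genes, 12 were lower in GFP+ on both plates, against 26.6% of all genes, and 1 was higher, with a median of -0.59. Both GFP+ sums lay below both GFP- sums for 9 of them, against 18.2% of all genes. *Col4a1* and *Col4a2*, the neighbouring genes of the collagen IV chains, were 662 and 167 CPM and 346 and 36.8 CPM on plate G, and 779 and 377 CPM and 578 and 196 CPM on plate L. Their log2 differences were -1.44 ± 0.54 (edgeR p = 0.040) and -2.32 ± 0.65 (edgeR p = 0.013). On plate L, 1 GFP- cell gave 85.1% of the *Col4a1* and 84.03% of the *Col4a2* reads of its sum, the cell with 13351 genes, and 1 GFP+ cell gave 96.4% and 100% of theirs. Leaving out single cells moved *Col4a1* from -3.62 to -0.20 and *Col4a2* from -6.83 to -1.12. Without the lipid-high cells, which had 85.88 to 1837 CPM of this list, the median was -0.15, against -0.28 over all genes.

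Luminal genes were not higher as a group. Of 13 tested luminal keratin and junction genes, 1 was higher and 3 lower on both plates, against 20.8% and 26.6% of all genes tested. The list median was 0.23, with 0.84 on plate G and -0.32 on plate L. *Krt8* was 221 and 144.4 CPM on plate G and 58.1 and 144.6 CPM on plate L, and *Krt18* 220 and 231 CPM, then 91.4 and 69.7 CPM. *Krt19* was the member that was higher on both, at 7.12 and 97.9 CPM, then 1.06 and 2.34 CPM, and 72.01% of the GFP+ reads on plate G came from 1 cell (log2 difference 2.58 ± 1.41, edgeR p = 0.12). *Cldn4*, a tight junction protein, was 297 and 1183 CPM on plate G and 933 and 27.95 CPM on plate L, each sum resting for at least 83.6% on 1 cell.

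Markers of hormone receptor negative luminal cells, the fate that Notch favours, were unevenly present. Of 20 listed 10 passed the filter, and their per-cell sum had a median of 1565 CPM in GFP- and 650.4 CPM in GFP+ cells. *Lcn2*, the secreted iron-binding protein lipocalin 2, had reads in 11 of 11 GFP- and 10 of 11 GFP+ cells, at 387 and 1749 CPM on plate G and 800.3 and 58.3 CPM on plate L. *Kit*, *Aldh1a3* and *Elf5* were below the filter, with at most 1.61 CPM in any GFP+ sum. The median log2 difference over the 10 was -1.14 (0.47 on plate G and -1.53 on plate L). Of the 10, 1 was higher and 2 lower on both plates, against 20.8% and 26.6% of all genes tested. *Ehf*, an epithelial transcription factor, was the one higher on both (36.003 and 102.3 CPM, then 63.3 and 73.4 CPM). On plate L its GFP+ reads lay in the 3 lipid-high cells, and its log2 difference of 0.94 was -3.16 without the 6 such cells. Of 7 tested hormone receptor positive genes, 2 were higher and 3 lower on both plates, against 20.8% and 26.6% of all genes tested. Their median was -2.34. That median was -3.88 on plate G alone, 0.27 on plate L alone and -0.59 without the plate as a block. *Prlr*, the prolactin receptor, was 29.01 and 48.5 CPM, then 40.2 and 144.9 CPM. Its plate L GFP+ reads too lay in the 3 lipid-high cells, and its difference of 1.38 was -1.23 without the 6. *Pgr*, the progesterone receptor, had 22.9 and 0 CPM, then 22.2 and 2.24 CPM with reads in 1 GFP+ cell.

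The genes with the smallest p that were lower in GFP+ on both plates, with reads in at least 3 GFP- cells on each, were *Odc1*, *Myh11*, *Socs3*, *Igfbp5*, *Taf4b*, *Tnfrsf11a*, *Slco2a1*, *Hsph1*, *Slc35e1* and *Rnf123*, at log2 differences of -6.33 to -2.65. *Odc1*, the first enzyme of polyamine synthesis, was 368 and 21.7 CPM on plate G and 780 and 20.4 CPM on plate L. Its difference was -4.59 ± 0.65 (edgeR p = 0.00049) and ranged from -7.12 to -2.67 when each cell was left out. It was -5.38 without the lipid-high cells. The plate L level of *Odc1* in GFP- cells leaned on 1 cell at 3491 CPM, against at most 160.8 CPM in the other GFP- cells of that plate. *Socs3*, an inhibitor of JAK-STAT signalling, was 147.4 and 22.1 CPM, then 545 and 35.2 CPM (-3.27 ± 0.63). In 1 GFP- cell of plate L *Socs3* was 2369 CPM, against at most 261 CPM in the other GFP- cells of that plate. *Igfbp5*, an IGF-binding protein, was 1383 and 85.3 CPM, then 321 and 52.4 CPM (-3.24 ± 0.63, edgeR p = 0.0025). The GFP+ reads of *Igfbp5* came to 99.7% from 1 cell on plate G. On plate L 1 GFP- cell had 1396 CPM of *Igfbp5*, against at most 135.3 CPM in the other GFP- cells. *Tnfrsf11a*, which encodes the receptor RANK, was 40.6 and 0.440 CPM, then 72.3 and 1.02 CPM. On plate L 1 GFP- cell had 322 CPM of *Tnfrsf11a*, against at most 22.4 CPM in the other GFP- cells.

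Those higher in GFP+ on both plates by the same rule included *Pmvk*, *Map1b*, *Tmcc3*, *Hmgcs1*, *Krt16*, *Mvd*, *Cbl*, *Ptpn13* and *Rhog*, at 2.17 to 5.34. *Map1b*, a microtubule-associated protein, was 29.01 and 194 CPM on plate G and 22.3 and 174 CPM on plate L (2.93 ± 0.60, edgeR p = 0.0032), and 3.44 without the lipid-high cells. *Krt16*, a keratin of stressed and wounded epidermis, was 1.45 and 56.3 CPM, then 0.951 and 37.1 CPM, but 1 cell gave at least 93.5% of each GFP+ sum. *Cbl*, a ubiquitin ligase of receptor tyrosine kinases, was spread over more cells, with reads in 10 of 11 GFP+ and 8 of 11 GFP- cells (17.4 and 120 CPM, then 42.7 and 166 CPM). *Pmvk*, *Hmgcs1* and *Mvd* encode enzymes of the mevalonate pathway of cholesterol synthesis. Without the lipid-high cells the difference of *Mvd* was -2.25, and that of *Tmcc3* was 0.93 in place of 2.42.

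Cholesterol and fatty acid synthesis genes were the list with the highest median, 1.23. All 18 were tested, 10 were higher in GFP+ on both plates, against 20.8% of all genes, and none was lower. An unadjusted p under 0.05 was found for 5, all higher, against 0.853% of all genes (*Hmgcs1*, *Idi1*, *Fdft1*, *Cyp51*, *Scd1*). *Hmgcs1*, HMG-CoA synthase, was 36.003 and 318 CPM on plate G and 186 and 528 CPM on plate L (2.40 ± 0.65, edgeR p = 0.011). *Scd1*, the stearoyl-CoA desaturase, was 915 and 1694 CPM, then 1437 and 5746 CPM (1.52 ± 0.60, edgeR p = 0.046). In every sum at least 53.01% of the *Scd1* reads came from 1 cell, and leaving out single cells moved its difference from 0.11 to 4.06.

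The lipid-high cells were 1 of 5 GFP+ and 1 of 6 GFP- cells on plate G, and 3 of 6 and 1 of 5 on plate L. The list median was 1.22 on plate G and 1.38 on plate L. These cells held 5331 to 20490 CPM of the list, against 120 to 3119 CPM in the other 16 cells. They also had 2095 to 4124 CPM of a sebaceous and skin list that shares no gene with it, led by *Mgst1* and *Krt79*, against at most 777 CPM in the others. *Trp63* was present in all 6 (216 to 674 CPM), while *Krt5* was at most 0.596 CPM and *Acta2* at most 53.4 CPM. Without these cells the list median was 0.03, with a median of -0.28 over all genes, and *Hmgcs1* and *Scd1* stood at 0.61 and 0.55. Cells over the same threshold made up 2 of 63 and 19 of 61 intermediate-gate GFP+ cells of plates G and L, and 0 of 12 intermediate-gate GFP- and 0 of 23 luminal-gate cells. Whether chase, mice or tissue of origin goes with them was not tested.

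**Figure D4:**
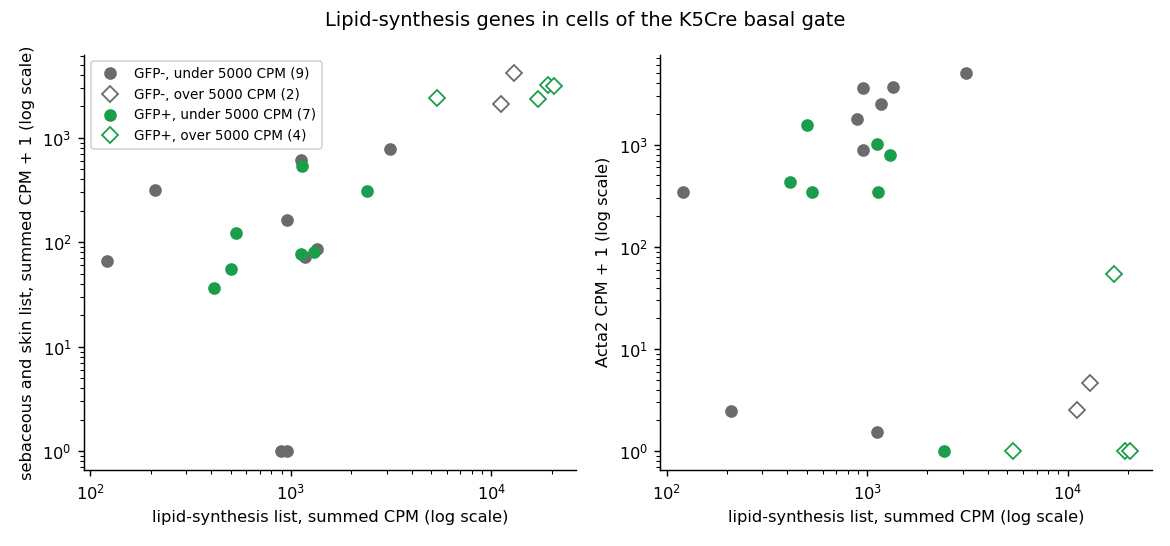
Each kept cell by its summed CPM of 18 lipid-synthesis genes (horizontal, log scale) against the sebaceous and skin list plus 1 (left) and *Acta2* plus 1 (right), with open diamonds for cells over 5000 CPM. The 6 such cells, 4 GFP+ and 2 GFP-, are the highest on the sebaceous and skin list and have at most 53.4 CPM of *Acta2*.

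The *Hmgcs1* window is shown for the letters that the sterol-sensing factors of this pathway are known to bind, TCACCCCAC, and for CCAAT, both searched on either strand and not overlapping here. It lies at chr13:119690101-119690400 of GRCm38.p6 on the plus strand, from RefSeq, with the matches in capitals.
Hmgcs1: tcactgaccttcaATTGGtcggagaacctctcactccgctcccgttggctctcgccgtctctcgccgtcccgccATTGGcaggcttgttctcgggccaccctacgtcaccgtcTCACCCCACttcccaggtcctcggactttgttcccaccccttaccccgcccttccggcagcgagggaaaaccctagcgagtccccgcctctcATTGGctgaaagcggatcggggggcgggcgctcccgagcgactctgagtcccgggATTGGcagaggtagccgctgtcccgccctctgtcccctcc
TCACCCCAC occurs in 0.551% of all windows and in 1 of the 11 listed lipid genes with a window, *Hmgcs1* itself. CCAAT occurs in 37.4% of all windows, in 9 of these 11 genes and in 8 of the 14 contractile genes with a window (57.1%). A gene counted if any of its windows matched, so shares of genes and of windows are not fully alike.

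The other lists gave smaller or plate-dependent medians. Cell cycle genes had a median of -0.49 over 18 tested (of 33 listed), with 2 higher (20.8% of all genes) and 4 lower (26.6%) on both plates. Their per-cell sum was 191 to 1327 CPM (median 870) in GFP+ and 456 to 4759 CPM (median 974) in GFP- cells. The highest value was the GFP- cell with 13351 genes, and *Mki67* had reads in 4 cells of each state. Immediate early genes had a median of 0.32 on plate G and -1.63 on plate L, and on plate L 1 GFP- cell at 83450 CPM stood apart. Over both plates the median of the 19 immediate early genes was -0.55. None was higher and 5 were lower on both, against 20.8% and 26.6% of all genes tested. Among them *Fosl2* was lower on both plates (544 and 184 CPM, then 793 and 291 CPM, log2 difference -1.43 ± 0.50, edgeR p = 0.030). Of 7 tested EGF family genes 3 were higher (20.8% of all genes) and 1 lower (26.6%) on both plates, with a median of -0.03. The ligand *Tgfa* was 140.98 and 17.6 CPM, then 142.98 and 58.5 CPM (-2.06 ± 0.74, edgeR p = 0.034), while its receptor *Egfr* was higher on both plates (66.7 and 226 CPM, then 158.1 and 227 CPM, 1.22 ± 0.59).

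Of 16 tested Wnt pathway genes 2 were higher (20.8% of all genes) and 6 lower (26.6%) on both plates, with a median of -0.32, and *Wnt6* was the only one with an unadjusted p under 0.05. It had reads in 2 GFP- cells and in no GFP+ cell, at least 137.2-fold lower with a floor of 3 reads over the GFP+ group. The cell with 13351 genes gave 80.998% of these reads, and without it the limit was 29.3-fold. *Wnt5b* had reads in 5 GFP- cells and no GFP+ cell, at least 82.1-fold lower, but 89.3% of the reads came from 1 cell of plate G, and without it the limit was 9.53-fold. The limits for *Wnt6* and *Wnt5b* cover the counting of reads only, not the spread between cells. BMP, TGF-beta and Id genes had a median of 0.00 over 16 tested, with 3 higher (20.8% of all genes) and 2 lower (26.6%) on both plates. Of 11 tested genes that the study names for the transition (median -0.10), 1 was higher (20.8% of all genes) and 1 lower (26.6%) on both plates. These were *Stat6* (36.4 and 169 CPM, then 60.8 and 99.6 CPM) and *Igfbp5*. The study chose that list on cells that include these, so it is no independent evidence of direction. The EGF family and transition lists had fitted medians below 0 but medians above 0 within each plate (0.29 and 0.59, and 0.54 and 0.06, on plates G and L).

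**Figure D5:**
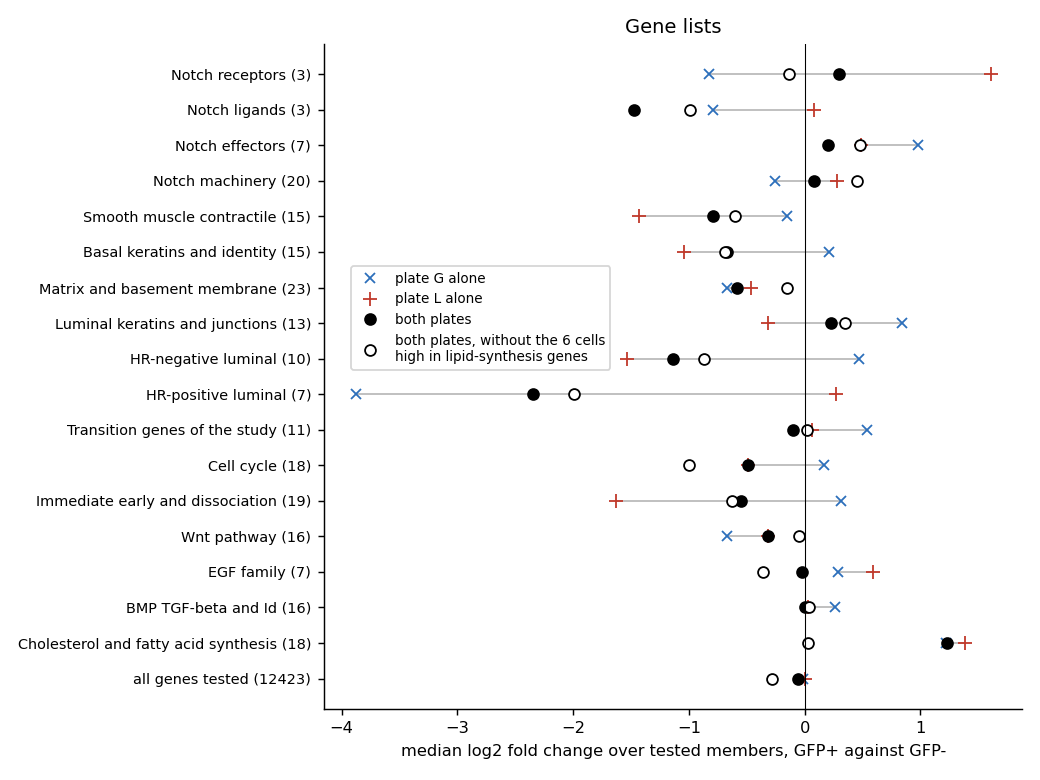
Median log2 difference, GFP+ against GFP-, over the tested members of 17 lists and over all genes (number tested in brackets), for both plates, for each plate alone and without the 6 lipid-high cells. Over both plates the contractile, basal and matrix lists lie at -0.79 to -0.59, and the cholesterol list lies at 1.23 with and 0.03 without those cells.

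Set beside the neighbouring gates of the same plates, the basal gate held the highest GFP+ level of *Acta2*, and differences between gates were not tested. The intermediate-gate GFP+ cells stood at 347 CPM on plate G (63 cells) and 225 CPM on plate L (61 cells), and the luminal-gate GFP+ cells at 12.9 and 0.106 CPM, against 506.1 and 325 CPM in the basal-gate GFP+ cells. For *Krt8* the order was the reverse, at 493 and 318 CPM in the intermediate and 1685 and 3767 CPM in the luminal gate, against 144.4 and 144.6 CPM. Intermediate-gate GFP+ cells had 54.6 and 46.2 CPM of *Hes1* and 55.8 and 23.02 CPM of *Hey1*. The GFP- cells of the intermediate gate had 291 CPM of *Hey1* on plate G and 0.782 CPM on plate L, so that GFP- cells also reached a high level. *Notch1* was 390 and 165 CPM in intermediate-gate GFP+ cells, and 183 and 307 CPM in the basal-gate GFP+ cells.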

How the data were processed

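Single cells had been index-sorted and sequenced with Smart-seq2, and only the third batch was used here. The authors deposited raw read counts per gene, made per the submitters' processing notes with Trim Galore 0.6.5, STAR 2.7.7a and HTSeq 0.13.5 on GRCm38, without normalization. Whether counting used strand is not given in the sources used here, so overlapping and antisense genes cannot be told apart. Of 34531 Ensembl genes 33510 matched a symbol. The 64 spike-in entries (0.214% of gene and spike-in reads) and 5 summary entries stayed out of totals. No doublet caller was run.

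Reads were summed per plate and GFP state, since cells that share mice are no replicates. The p-values rest on 2 plates and on a spread that edgeR largely borrows across genes, with a median of 4.68 prior against 1 residual degree of freedom. edgeR 4.0.16 (R 4.3.3) fitted its quasi-likelihood model with its default filter, TMM scaling and the plate as a block, because both GFP states of a plate came from the same pooled mice (two-sided test, Benjamini-Hochberg adjustment). Within-plate log2 ratios used a prior count of 2. The script was tested on simulated counts. Alternatives were DESeq2 1.42.0, its size factors, other gene and cell filters, no block, thinning to 100000 reads, equal weight per cell with limma 3.58.1, and each plate left out. Leaving out the lipid-high cells, or each cell in turn, was added after seeing the data.

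Named genes were *Notch1*, *Hes1*, *Hey1*, *Krt5* and *Acta2*, the list members with the highest mean CPM or smallest p, and the 10 per direction with the smallest p that went the same way on both plates with reads in at least 3 cells of the higher group on each. Further list members were named after their values were seen. Members and lists were chosen with earlier results of these data known. 1 gene that the rule names is not reported here.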

Additional observations from a re-analysis of the deposited data

How the results depend on the processing

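No gene was called by edgeR with other size factors, with genes read in at least 6 cells, thinned cells, a minimum of 50000 reads, no *Epcam* filter or without the lipid-high cells, nor by limma with equally weighted cells. Without the filter on low counts 1 gene was called, *Myh11* (-6.31, adjusted p = 0.046), and DESeq2 called 171, with 22250 and 12423 genes tested. Leaving out single cells gave 0 to 1 calls, the 1 being *Crispld2* without 1 GFP+ cell of plate L. Without the plate as a block (an unpaired fit), 0 genes were called and 618 had an unadjusted p under 0.05, against 272.

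Without the block, log2 differences changed sign for *Hes1* (-0.072), *Cldn4* (0.085), *Lcn2* (0.71), *Jun* (-0.24), *Nrg1* (0.75) and *Ccn2* (1.20), and list medians moved to -0.70 (Wnt), 0.75 (EGF) and 1.03 (cholesterol). Without the lipid-high cells signs changed for *Notch1* (-0.11), *Spen* (0.57), *Krt17* (0.022), *Cxcl14* (0.39), *Ehf* (-3.16), *Prlr* (-1.23), *Jun* (-0.31), *Mcm5* (-0.72), *Fzd7* (-1.65), *Nrg1* (0.22) and *Mvd* (-2.25), and list medians moved to -0.15 (matrix), -0.995 (cell cycle), -0.047 (Wnt), -0.36 (EGF) and 0.029 (cholesterol). Signs changed with thinned cells for *Cxcl14* (0.63), *Jun* (-0.072), *Ccnd2* (-0.42), *Nrg1* (0.11) and *Ccn2* (0.42). With equal weight per cell they changed for *Cxcl14* (0.39), *Jun* (-0.11), *Ccnd2* (-0.39) and *Nrg1* (0.079), and with no *Epcam* filter for *Sox9* (-0.0078), *Sparc* (0.30), *Ccnd2* (-0.026) and *Sfrp1* (0.0016). The cause was not tested. Over all genes the median shifted from -0.06 to -0.16 with equal weight, -0.21 without the filter and -0.28 without the lipid-high cells.

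Each plate alone gave list medians of -0.79 to 0.082 (Notch ligands), 0.49 to 0.98 (effectors), -1.53 to 0.47 (hormone receptor negative), 0.062 to 0.54 (transition), -0.49 to 0.17 (cell cycle), -0.67 to -0.32 (Wnt), 0.29 to 0.59 (EGF), 0.032 to 0.26 (BMP) and 1.22 to 1.38 (cholesterol). Thinned cells gave median basal marker sums of 8140 (GFP-) and 4360 CPM (GFP+) and luminal sums of 1640 and 1230 CPM. With 2 plates, 11 cells per state and reads that often came from 1 cell, smaller differences were not detectable. Larger ones were also often missed in the simulated counts.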
